A study of Canis lupus familiaris with 15 samples.

Results

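The dog mammary carcinoma line P114 was compared with the mammary osteosarcoma line CMT-U335 on 5 of the 15 cDNA arrays of the study. The 5 arrays were those whose titles name P114 against CMT-U335, and every one of the 5246 genes named on the array is described. The study set 3 cultured dog mammary tumour lines against each other in a loop, 5 arrays per pair. P114 was grown from a primary anaplastic carcinoma, CMT-U335 from an osteosarcoma that arose in the gland and CMT-U229 from a mixed tumour that was benign. The lines were untreated and were harvested near confluence. Total RNA was amplified into labelled cRNA, and each array received RNA of 2 lines, one coupled to Cy5 and the other to Cy3. P114 carried Cy5 on replicates 2, 3 and 5 and Cy3 on replicates 1 and 4. Each tumour type is represented by 1 line, so a difference between these lines cannot be told apart from a difference between the tumour types. The labels call the 5 arrays biological replicates, but the design text mentions dye swaps and only 1 or more biological replicates per pair. Some arrays may therefore repeat the same RNA, and the p-values measure the spread between arrays.

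Carcinomas arise from epithelium, the sheet-forming cells that line ducts and carry keratins and adhesion molecules. Osteosarcomas are tumours of mesenchymal cells that lay down bone matrix, and in dogs they can arise within the mammary gland. Cultured lines keep part of the gene expression of their tissue of origin and also carry copy-number changes and culture adaptations of their own. A cDNA array with a pair of dyes measures for each gene a ratio between the lines and no absolute level, so a marker can be shown to be higher in one line but not to be absent from the other.

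All values below are log2 ratios of P114 over CMT-U335, so that 1 stands for 2-fold higher in P114 and -1 for 2-fold lower. Means are given with the standard error from limma, over 5 arrays unless another number is stated. The deposited values were read as Cy5 over Cy3 and as base 2, neither of which is stated, so the direction is likely and not settled. Were they Cy3 over Cy5, every higher gene would be lower. Limma called 1169 genes, 22.3% of those tested, at a Benjamini-Hochberg adjusted p under 0.05. Of these 414 were higher in P114 (7.89% of all genes) and 755 lower (14.4%). Most differences were small: the median absolute ratio of called genes was 0.570, and 83.3% of them lay under 1. A ratio of at least 2, a 4-fold difference, was reached by 20 called genes upward and 11 downward. The median ratio of all genes was -0.023 and the median standard error 0.097. No gene was called for a dye effect within the pair, although 436 genes (8.31%) had an unadjusted p under 0.05 for it. All 1169 called genes had the same sign in the means of both dye orders, which the call itself favours, as it needs arrays that differ little.

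The highest ratios belonged to a secreted matrix protein, epithelial genes, a metallothionein and a cell cycle inhibitor. SPP1, which encodes osteopontin, a secreted phosphoprotein of bone matrix and of many carcinomas, stood at 4.41, 4.61, 4.25, 3.30 and 4.03 on replicates 1 to 5. Its mean was 4.12 ± 0.18, or 17.4-fold (limma, adjusted p = 2.47e-05). EPCAM, an adhesion molecule of epithelial cells, stood at 3.78, 3.01, 3.29, 3.55 and 4.11. Every array put both genes at least 8-fold higher in the carcinoma line, and the lowest SPP1 value was that of replicate 4.

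The paired keratins of simple epithelium rose together. KRT18 stood at 3.00, 2.84, 4.11, 3.73 and 3.70 and KRT8 at 2.07, 1.68, 3.04, 2.54 and 2.95 on the same arrays. In both genes replicates 1 and 2 gave the lowest values and replicate 3 the highest. Of the 5 measured genes of the epithelial surface and keratins these 3 rose, 60% called against 22.3% of all genes. The mucin MUC1 (-0.14 ± 0.081) and the splicing regulator ESRP2 (0.17 ± 0.086) were not called.

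MT2A, a metallothionein that binds zinc and copper, stood at 3.51, 3.01, 3.24, 3.08 and 3.27 and had one of the smallest spreads among the leading genes (SD 0.19). CDKN1A, the p21 inhibitor of cyclin-dependent kinases and a target of p53, stood at 3.08, 2.62, 3.24, 3.48 and 3.22. TMEFF2, a transmembrane protein with follistatin domains, stood at 3.00, 2.87, 2.49, 3.09 and 3.11. These 3 genes lay above 2.4 on every array. FABP3, an intracellular carrier of fatty acids, was less even, at 2.41, 1.48, 2.43, 3.71 and 4.66, with replicates 4 and 5 above the others and replicate 2 lowest.

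Further down the upper end lay STEAP1, a metalloreductase of the cell surface (2.88 ± 0.15), IGFBP7, a secreted binding protein of insulin-like growth factors (2.59 ± 0.15), and RARRES1, a retinoid-responsive membrane protein (2.46 ± 0.20). ACSL5, which activates long-chain fatty acids, was at 2.45 ± 0.25. NDUFV2, a subunit of respiratory complex I, was at 2.38 ± 0.14 and CHD1L, a chromatin remodeller, at 2.37 ± 0.30. S100A14, an epithelial calcium-binding protein, MOCS2, of molybdenum cofactor synthesis, and FDFT1, squalene synthase, were at 2.33 ± 0.095, 2.18 ± 0.13 and 2.16 ± 0.095. The antiviral enzyme OAS2 (2.14 ± 0.20), GALNT15, of the family that starts mucin-type glycosylation (2.08 ± 0.21) and the ribosomal protein paralogue RPL22L1 (2.02 ± 0.24) completed the 20 highest.

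The lowest ratios included those of secreted proteins, of a mitochondrial enzyme and of proteins of the membrane and the actin skeleton. PROS1, which encodes the anticoagulant protein S, stood at -3.08, -3.60, -3.73, -2.70 and -3.68 on replicates 1 to 5, with a mean of -3.36 ± 0.16, 10.2-fold lower in P114 (limma, adjusted p = 3e-05). CTSK, cathepsin K, the collagen-cleaving protease of bone resorption, stood at -3.45, -2.16, -3.11, -3.71 and -4.04. ALDH1L2, a mitochondrial enzyme of folate metabolism, stood at -2.83, -2.32, -3.09, -3.004 and -3.40. All 3 were at least 4-fold lower on every array, and the values nearest 0 came from replicate 4 for PROS1 and replicate 2 for the other 2.

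SGCE, a sarcoglycan of the cell membrane, stood at -2.85, -2.30, -2.76, -2.33 and -2.84, and TFPI2, a secreted inhibitor of serine proteases, at -2.36, -1.54, -2.75, -2.42 and -3.18. CALD1, caldesmon, which binds actin and regulates contraction, stood at -2.31, -2.60, -2.23, -2.08 and -2.15. Replicate 2 gave the value nearest 0 for SGCE and TFPI2 but the lowest for CALD1. SPTAN1, a spectrin that lines the plasma membrane, was the least even of the 40 leading genes, at -1.98, -0.78, -1.90, -3.67 and -3.96. With replicates 1 and 3 and replicates 4 and 5 averaged as possible dye swaps it was no longer called (-2.18, limma, adjusted p = 0.0562).

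The actin bundler PLS3 was at -2.25 ± 0.17, the fatty acid carrier FABP5 at -2.15 ± 0.17 and CCDC80, a secreted matrix-associated protein, at -2.05 ± 0.19. The small heat shock protein HSPB8 (-2.01 ± 0.093), the mitochondrial deacylase SIRT5 (-1.97 ± 0.11), PCOLCE, an enhancer of procollagen cleavage (-1.96 ± 0.16), and the cyclophilin PPIC (-1.96 ± 0.21) followed. MITF, a transcription factor of pigment cells, osteoclasts and lysosomal genes, stood at -2.07, -1.31, -2.31, -1.48 and -2.31. ST3GAL5, which makes the ganglioside GM3, was at -1.89 ± 0.25, NXPE3 at -1.84 ± 0.086, the phospholipid acyltransferase MBOAT2 at -1.83 ± 0.11, ARMCX3 at -1.82 ± 0.26 and LOC480844 at -1.91 ± 0.27. The standard deviation over arrays in the 40 leading genes ran from 0.169 to 1.330 with a median of 0.471. Of the 40, 35 rested on a single probe.

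**Figure D1:**
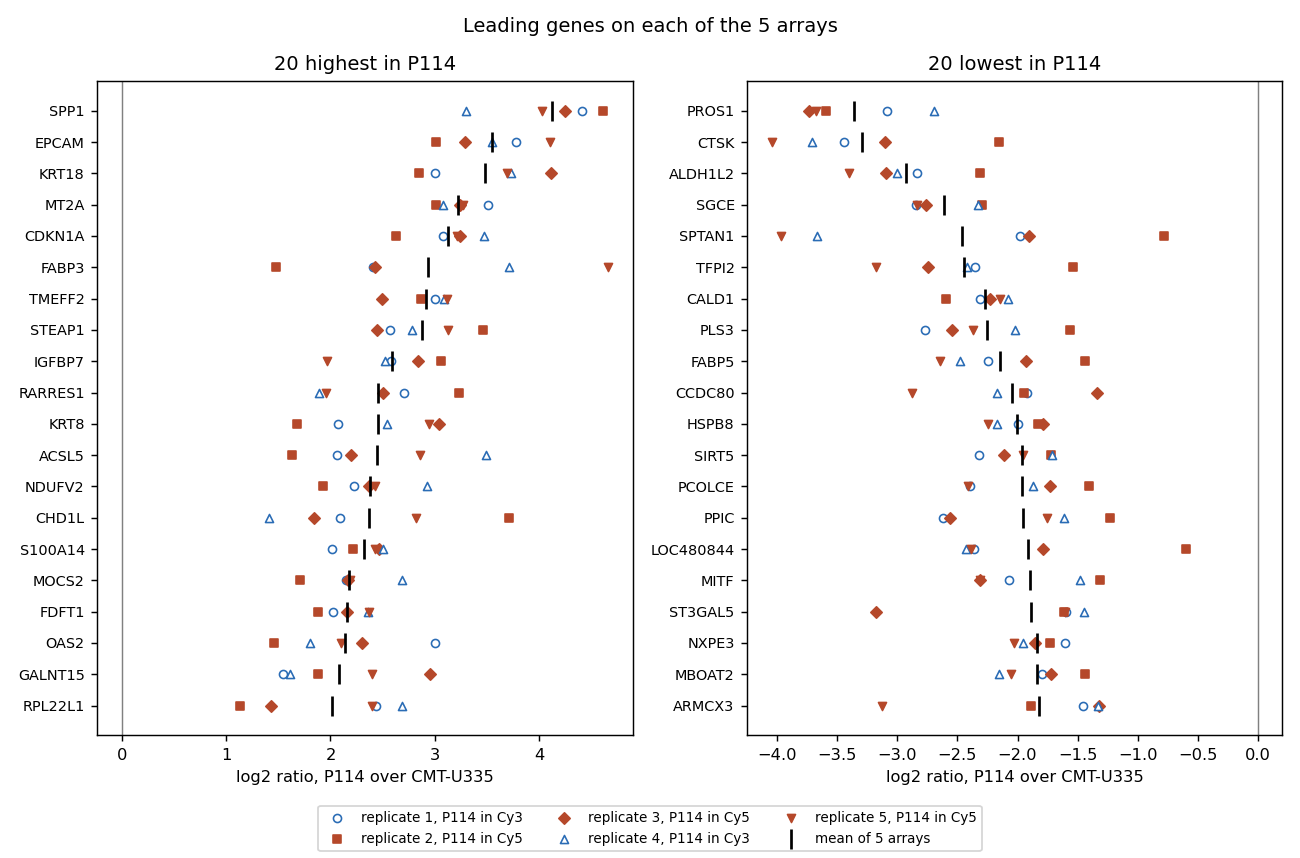
Log2 ratios of P114 over CMT-U335 on each of the 5 arrays for the 20 called genes with the highest and the 20 with the lowest means among genes of 1 sign on all arrays; filled red symbols are arrays with P114 in Cy5, open blue symbols arrays with P114 in Cy3, and vertical ticks the means. That rule puts every array of the 40 genes, and so both dye orders, on one side of 0. SPTAN1, FABP3 and CHD1L show the widest spread.

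The 10 arrays of the other pairs gave a second ratio of P114 over CMT-U335 by way of CMT-U229, from hybridisations that were not used to choose the leading genes, although they may share RNA with them. For SPP1 this indirect ratio was 4.60 ± 0.65 and for EPCAM 3.58 ± 0.21. For PROS1 it was -3.16 ± 0.26 and for CTSK -3.34 ± 0.33. In the 40 leading genes the direct and the indirect ratio differed by a median of 0.162, at most by 0.630 in ARMCX3, and the smallest unadjusted p for a difference was 0.0593. Over all genes, limma called no difference between the direct and the indirect ratio, and 17 genes (0.324%) had an unadjusted p under 0.05. The median absolute difference was 0.084, against a median standard error of 0.180. Chance alone would put about 5% of genes under 0.05. The test was therefore conservative, and its lack of calls does not show that the ratios are equal.

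**Figure D2:**
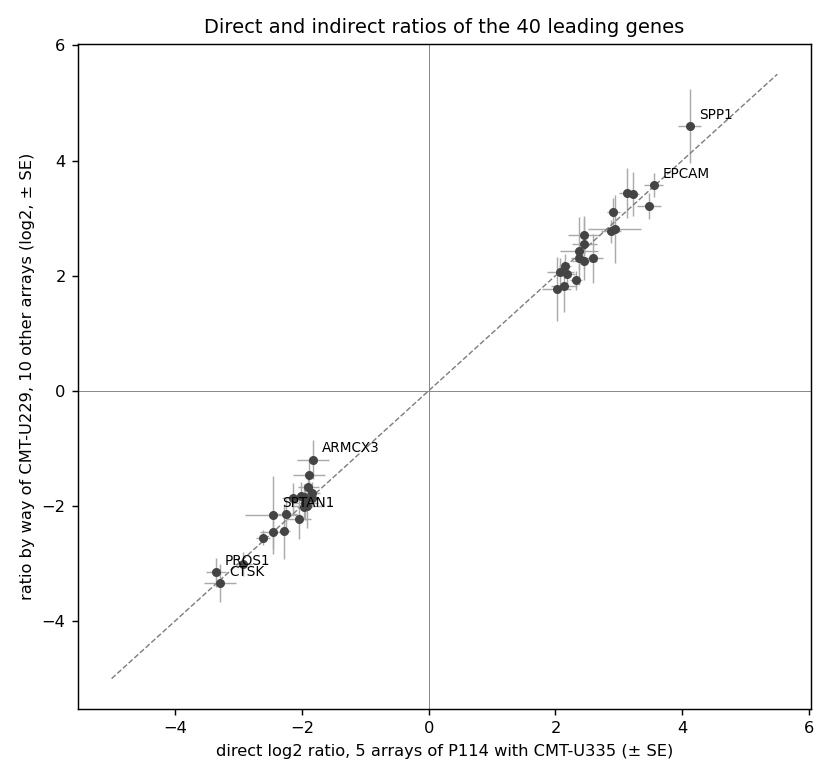
Direct log2 ratio of P114 over CMT-U335 (horizontal, mean of 5 arrays) against the ratio by way of CMT-U229 (vertical, from 10 other arrays) for the 40 leading genes, with standard errors as bars and the line of equal values dashed. The genes were chosen by the direct ratio; SPP1 and EPCAM lie at the upper end, PROS1 and CTSK at the lower end, and ARMCX3 lies farthest from the line with a difference of 0.630.

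The third line placed these differences differently from gene to gene. Limma called 7.3% of genes in P114 over CMT-U229 and 17.3% in CMT-U229 over CMT-U335. In P114 over CMT-U229 and in CMT-U229 over CMT-U335, EPCAM was at 1.80 ± 0.099 and 1.78 ± 0.14, so CMT-U229 lay between the other lines. KRT8 was at -0.31 ± 0.19 (not called) and 2.56 ± 0.23 in the same order, whereas its partner KRT18 was at 2.41 ± 0.14 and 0.80 ± 0.073. TMEFF2 was at 3.09 ± 0.19 and 0.02 ± 0.14, and STEAP1 at 3.86 ± 0.10 and -1.09 ± 0.13. PROS1 was at 0.10 ± 0.20 and -3.26 ± 0.12, and CTSK at 0.64 ± 0.077 and -3.99 ± 0.23. FABP5 was at -3.76 ± 0.22 and 1.90 ± 0.085, lowest in P114 and highest in CMT-U229 of the 3 lines. These pairs share RNA of the same lines with the direct comparison and are given as values.

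Genes of cell junctions showed a mixed change. Of 9 measured members 4 rose, 1 fell and 4 were not called, 55.6% called against 22.3% of all genes. CTNNB1, beta-catenin, which links cadherins to actin and carries Wnt signals, stood at 2.15, 2.82, 2.12, 1.33 and 1.42, with replicates 4 and 5 lowest. Plakoglobin, JUP, was at 0.57 ± 0.11. The desmosomal linker DSP was at 0.57 ± 0.15 and the tight junction scaffold TJP1 at -0.35 ± 0.082. Neither was called without replicate 3 (adjusted p = 0.0895 and 0.0722), TJP1 was also lost without replicate 2 or 5, and DSP with possible dye swaps averaged (adjusted p = 0.0696). Alpha-catenin, CTNNA1, was at -0.01 ± 0.089 and PERP at 0.00 ± 0.096, neither called. Of 17 integrins and adhesion receptors 3 rose and 1 fell, 23.5% called, near the 22.3% of all genes. The integrin chains ITGAV and ITGB5 were at 0.83 ± 0.10 and -0.77 ± 0.14.

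Matrix genes held both directions. Among 13 collagens and genes of collagen assembly 6 fell and 3 rose, so that 69.2% were called against 22.3% of all genes. The type I chain COL1A2 (-1.39 ± 0.14), the type XII chain COL12A1 (-1.04 ± 0.15) and both basement membrane chains COL4A1 and COL4A2 (-0.79 ± 0.11 and -0.87 ± 0.12) fell, as did PCOLCE. The type III chain COL3A1 rose (0.69 ± 0.11), as did the collagen chaperone SERPINH1 (0.94 ± 0.095) and the prolyl hydroxylase subunit P4HA2 (0.78 ± 0.11). COL3A1 was lost with possible dye swaps averaged (adjusted p = 0.0521). Of 20 matrix glycoproteins and proteoglycans 6 rose, 3 fell and 11 were not called, 45% called. The difference between these lists was not tested. Besides SPP1, fibronectin FN1 stood at 1.36, 1.72, 1.65, 0.63 and 0.57 and the laminin chain LAMA3 at 1.85, 2.54, 1.71, 0.77 and 1.05. Both were above 0 on every array and lowest on replicates 4 and 5. The laminin chain LAMB1 was at 0.82 ± 0.10 and the small proteoglycan BGN at 0.69 ± 0.13. The calcium-dependent fibulin FBLN2 (-0.85 ± 0.14) and the matricellular CCN1 (-1.14 ± 0.22) fell.

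Among bone genes the carcinoma line had the higher SPP1. Of 7 measured members 2 rose and 1 fell, 42.9% called against 22.3% of all genes. The 4 not called were ALPL, the alkaline phosphatase of bone-forming cells (0.17 ± 0.11), PHEX (0.09 ± 0.092), BMP2 (0.01 ± 0.076) and ATF4 (0.08 ± 0.098). SPARC, osteonectin, was at 0.56 ± 0.17 and was no longer called without replicate 2, 3, 4 or 5 or with a dye term (adjusted p = 0.0855), so the count higher was 1 in these cases. Of 6 genes of bone resorption CTSK was the called one, 16.7% of the list. Of 13 matrix proteases and their inhibitors 3 fell and 2 rose (1 without replicate 4), 38.5% called. TIMP1, an inhibitor of metalloproteinases, was at 1.30 ± 0.15 and the cathepsin CTSZ at -0.81 ± 0.12. Mesenchymal markers had 2 of 6 lower (33.3% called), the transcription factor ZEB1 (-0.91 ± 0.13) and FBLN2, and 4 of 6 without replicate 2. Vimentin, VIM, was at -0.33 ± 0.11 (limma, adjusted p = 0.0663), S100A4 at -0.23 ± 0.17 and decorin, DCN, at 0.19 ± 0.16, none of them called. Without replicate 2, VIM (-0.431, adjusted p = 0.0176) and S100A4 (-0.421, adjusted p = 0.0495) were called lower, and VIM also in the loop fit over 15 arrays (-0.421, adjusted p = 0.00913). RUNX2, BGLAP, COL1A1, KRT19, CDH1 and CDH2 were not analysed here.

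Several genes of the contractile and actin skeleton were lower in P114. Of 16 myoepithelial and contractile genes 5 fell, 1 rose and 10 were not called, 37.5% called against 22.3% of all genes. The one that rose was lost without replicate 3 or 4. Besides CALD1, the myosin light chain MYL9 stood at -1.16, -0.50, -0.88, -1.19 and -1.52 and the tropomyosin TPM2 at -0.87, -0.49, -0.89, -0.94 and -1.32. All 5 arrays were below 0 for both. TPM4 was at -0.62 ± 0.075 and the non-muscle myosin heavy chain MYH9 at -0.56 ± 0.088. Of 29 genes of actin remodelling 7 fell, 3 rose and 19 were not called, 34.5% called, with a list median of -0.05. EZR, ezrin, which ties actin to the apical membrane of epithelia, rose (1.47 ± 0.071). The small GTPase RAP1B, which acts on integrins, was at -1.45 ± 0.11. Of 23 genes of microtubules and motors 7 fell and 1 rose, 34.8% called. The tubulin-destabilising STMN1 was at -1.12 ± 0.22 and the kinesin KIF5B at -1.03 ± 0.20. STMN1 was lost when the spread was estimated from all 15 arrays (adjusted p = 0.0541). The list's median was -0.25, against -0.023 for all genes.

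Among genes of cell division the called members were lower in P114. Of 20 genes of mitosis and chromosome segregation 7 fell and none rose, 35% called, although 1 rose without replicate 2. FOXM1, a transcription factor of G2 and mitosis, stood at -1.57, -1.63, -1.52, -1.80 and -1.86, BUB3, of the spindle checkpoint, at -0.98, -0.72, -0.96, -0.94 and -1.36 and the centrosomal TACC3 at -0.84 ± 0.091. All 5 arrays were below 0 for FOXM1 and BUB3, and FOXM1 varied little among them (SD 0.15). Of 19 genes of the G1/S transition and DNA replication 4 fell and none rose, 21.1% called, near the 22.3% of all genes. RFC3 and RFC5 of the clamp loader were at -0.77 ± 0.083 and -0.73 ± 0.092. Geminin, GMNN (-1.02 ± 0.23), and PCNA (-0.62 ± 0.16) were lost without replicate 1 (adjusted p = 0.0532 and 0.0723) or 3 (adjusted p = 0.0577 and 0.0781). PCNA was also lost with a dye term (adjusted p = 0.0537), with scaling between arrays (0.0531), with the spread of all 15 arrays (0.0907) and with possible dye swaps averaged (0.0777). The count of called replication genes ran from 2 without replicate 3 to 5 without replicate 5.

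Of 6 inhibitors of cyclin-dependent kinases and p53 targets 3 rose and 1 fell, 66.7% called against 22.3% of all genes. Those that rose were CDKN1A, CCNG1 (1.20, 1.27, 1.07, 1.97 and 1.32) and CCNG2 (0.42 ± 0.074). CDKN2C, the p18 inhibitor of CDK4 and CDK6, fell (-0.97 ± 0.092). CDKN1B, the p27 inhibitor, was at -0.44 ± 0.14 and CDKN2D at 0.01 ± 0.12, neither called. CDKN1B was called with the spread of all 15 arrays (adjusted p = 0.0241), in the loop fit (-0.373, adjusted p = 0.0122) and with robust eBayes (adjusted p = 0.0462). So the members of this family did not move one way.

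DNA repair genes were lower in 8 of 23 cases and higher in none, 34.8% called against 22.3% of all genes. XPA, which verifies damage in nucleotide excision repair, stood at -0.97, -0.99, -1.01, -0.86 and -1.49. The mismatch repair gene MSH6 was at -0.68 ± 0.14, RAD51C of homologous recombination at -0.68 ± 0.10, RAD23B at -0.59 ± 0.096 and RAD50 of the break-sensing complex at -0.49 ± 0.075. With any 1 array left out, 6 to 8 of them were called lower. Of 18 regulators of apoptosis 7 fell and 1 rose, 44.4% called. Clusterin, CLU, a secreted chaperone, rose (1.22 ± 0.13). The mitochondrial BNIP3 (-0.95 ± 0.095), the caspase regulator BIRC2 (-0.91 ± 0.095), the anti-apoptotic BCL2 (-0.87 ± 0.19) and the pro-apoptotic DIABLO (-0.54 ± 0.11) fell. Inhibitors and promoters of cell death were thus both among the lower genes. With possible dye swaps averaged BCL2 (adjusted p = 0.0974) and DIABLO (adjusted p = 0.0537) were each lost in one of the averagings, and with the median of its probes DIABLO was at -0.832.

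In signalling, several genes of the immediate early response were higher. Of 11 measured members 6 rose, 1 fell and 4 were not called, 63.6% called against 22.3% of all genes. FOS, a subunit of the AP-1 transcription factor, stood at 2.51, 0.53, 1.90, 2.02 and 2.15, and DUSP6, a phosphatase of the ERK kinases, at 2.14, 1.28, 1.94, 1.24 and 1.76. TRIB1, a pseudokinase that binds a ubiquitin ligase, stood at 1.87, 0.98, 1.97, 2.25 and 2.25. All values were above 0, and replicate 2 gave the lowest value for FOS and TRIB1. DUSP1 was at 1.56 ± 0.18 and IER2 at 1.31 ± 0.16, while CCN1 was the member that fell.

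Receptors, ligands and signalling genes held calls in both directions. Of 12 growth factors and receptors 2 rose and 2 fell, 33.3% called against 22.3% of all genes, and 1 was lower without replicate 1, 2, 3 or 4. The collagen receptor kinase DDR1 stood at 1.24, 1.50, 1.45, 1.37 and 1.29, VEGFA at 0.73 ± 0.077 and the fibroblast growth factor receptor FGFR2 at -0.54 ± 0.071. With the median of its probes FGFR2 was at -0.232 and was not called (adjusted p = 0.111), its 3 probes ranging from -1.294 to -0.139. The epidermal growth factor receptors EGFR (0.25 ± 0.097, limma, adjusted p = 0.122) and ERBB2 (0.02 ± 0.097, adjusted p = 0.93) were not called. EGFR was called in the loop fit over 15 arrays (0.285, adjusted p = 0.0359). Of 17 genes of PI3K and mTOR signalling RHEB, the GTPase that activates mTOR, was the called one (0.97 ± 0.11), 5.88% of the list. In Wnt signalling 3 of 18 rose and 1 fell, 22.2% called, near the 22.3% of all genes. The member that fell was lost without replicate 2, 3 or 5, and the secreted DKK3 was at 1.18 ± 0.076. The kinase CSNK1A1 (0.87 ± 0.25) rose but was at -0.17 on replicate 1. It was lost without replicate 2, 3, 4 or 5, with scaling between arrays, with a dye term and with robust eBayes. YAP1, the transcriptional coactivator restrained by Hippo signalling, stood at -0.95, -2.14, -1.24, -1.49 and -2.22, lowest on replicates 2 and 5. RGS2, which shuts off G protein signals, stood at 1.92, 2.81, 2.79, 0.91 and 1.26, with replicates 4 and 5 below the others, and PRKAR1A, a regulatory subunit of protein kinase A, was at -0.86 ± 0.13. Of 12 genes of TGF-beta and BMP signalling 3 rose and 1 fell, 33.3% called. The feedback inhibitor PMEPA1 was at 0.90 ± 0.14 and the ubiquitin ligase SMURF2 at 0.67 ± 0.11, and SMAD2 fell (-0.39 ± 0.091). The receptor ACVR1 (0.26 ± 0.073) rose but was lost with any 1 array left out. SMAD2 was lost without replicate 1 or 4 and with possible dye swaps averaged (adjusted p = 0.0531 and 0.064). Of 25 oncogenes and tumour suppressors 3 were called (12%, below the 22.3% of all genes), among them ETS1 at 0.70 ± 0.093.

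Among nuclear genes the shares called ran from near that of all genes upward. Of 33 histones and nucleosome proteins 8 fell and 2 rose, 30.3% called against 22.3% of all genes. The nucleosome-binding HMGN2 and HMGN3 were at -1.01 ± 0.17 and -1.28 ± 0.12 and the heterochromatin protein CBX5 at -0.88 ± 0.13, whereas HMGA1, a high mobility group protein abundant in embryonic and cancer cells, was at 1.50 ± 0.16. Of 32 chromatin-modifying enzymes 5 fell and 3 rose, 25% called, and 3 fell without replicate 3 or 5. ING3, a subunit of a histone acetyltransferase complex, stood at -1.65, -1.59, -1.23, -1.79 and -2.18. EED of the Polycomb complex was at 0.51 ± 0.093. Of 42 genes of RNA polymerase II and general transcription 10 fell and 6 rose, 38.1% called, with the elongation factor TCEA1 at -1.36 ± 0.21 and TAF2 at 1.19 ± 0.21. Of 28 nuclear pore and transport genes 6 fell and 1 rose, 25% called, with the importin KPNA2 at -1.14 ± 0.094.

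Splicing genes were called lower in 20 of 72 cases and higher in 1, 29.2% called. Of all genes 22.3% were called, 14.4% lower. The ribonucleoproteins HNRNPR (-0.999 ± 0.11), HNRNPA3 (-0.99 ± 0.15) and HNRNPA2B1 (-0.68 ± 0.097) and LSM3 of the U6 particle (-1.04 ± 0.11) were among them. HNRNPA2B1 was lost when the spread was estimated from all 15 arrays (adjusted p = 0.0916). The count lower was 13 without replicate 1, 14 without replicate 2 or 5, 15 without replicate 3 and 16 without replicate 4. The changes were small, with a list median of -0.12.

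Of 59 cytosolic ribosomal proteins 16 rose, 1 fell and 42 were not called, 28.8% called against 22.3% of all genes. The list's median was 0.16, 0.45, 0.36 and 0.27 on replicates 1 to 4 but -0.35 on replicate 5, which put the group lower in P114. RPL8 stood at 1.59, 2.05, 2.40, 1.90 and 1.20 and RPL30 at 1.13, 1.39, 1.35, 1.14 and 1.14, and RPS24 was at 1.07 ± 0.12. The count depended on single arrays: 26 rose without replicate 5, but 8 without replicate 3, 9 without replicate 1 or 2 and 10 without replicate 4. Of 43 translation factors 9 rose and 7 fell, 37.2% called. EIF3E, EIF3H and EIF3F, subunits of initiation factor 3, were at 1.55 ± 0.095, 1.50 ± 0.11 and 0.74 ± 0.11. TPT1, a growth-related protein whose 5 probes all rose, was at 1.51 ± 0.12, and the poly(A)-binding PABPC1 at 1.20 ± 0.10. The count lower fell from 7 to 2 without replicate 3 or 4, to 3 without replicate 5 and to 4 without replicate 1 or 2.

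Of 76 genes of the mitochondrial ribosome and of import into mitochondria 19 fell, 9 rose and 48 were not called, 36.8% called against 22.3% of all genes. The count higher was 4 without replicate 4 and 5 without replicate 3. The list's median was -0.13. The ribosomal proteins MRPL33 (-1.18 ± 0.083), MRPL21 (-1.11 ± 0.098), MRPL3 (-0.91 ± 0.083) and MRPS31 (-0.87 ± 0.12) and the translocase subunit TIMM17A (-0.93 ± 0.10) were among the lower ones. MRPS30 was higher, at 1.11, 0.68, 0.70, 1.89 and 2.94, with replicates 4 and 5 above the others, and was lost without replicate 4 (adjusted p = 0.0543) and with possible dye swaps averaged (adjusted p = 0.0597). The difference between the lists of the cytosolic and the mitochondrial ribosome was not tested.

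Of 48 genes of translocation into the endoplasmic reticulum, folding there and the unfolded protein response 10 rose, 2 fell and 36 were not called, 25% called against 22.3% of all genes. The list's median was between 0.08 and 0.17 on replicates 1 to 4 and -0.10 on replicate 5. The count lower was 1 without replicate 3 or 5. The disulphide isomerase PDIA3 was at 0.99 ± 0.13, the chaperone HSPA5 at 0.66 ± 0.14 and XBP1, the transcription factor of the unfolded protein response, at 0.83 ± 0.13. Translocation genes among them were the signal peptidase subunit SPCS3 (0.85 ± 0.075), TRAM1 (0.78 ± 0.078) and SRP72 of the signal recognition particle (0.72 ± 0.11), whereas another subunit of that particle, SRP54, fell (-0.71 ± 0.10). Of 30 genes of glycosylation 8 rose and 4 fell, 40% called. TUSC3, a subunit of the oligosaccharyltransferase, was at 0.87 ± 0.15, the glycolipid anchor transamidase subunit GPAA1 at 0.64 ± 0.090 and the heparan sulphate polymerase EXT1 at 0.62 ± 0.095. The count lower went from 4 to 1 without replicate 1 or 3 and to 2 without replicate 2 or 5.

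In later steps of the secretory and endosomal path more genes were lower than higher, as among all genes (14.4% lower, 7.89% higher, 22.3% called). Of 49 genes of traffic between endoplasmic reticulum and Golgi 11 fell and 7 rose, 36.7% called. The cargo receptor LMAN1 was at -0.66 ± 0.11 and the GTPase RAB6A at 0.72 ± 0.10. The count lower of this traffic list was 5 without replicate 3, 6 without replicate 1 and 7 without replicate 4 or 5, and the count higher 4 without replicate 4. Of 66 genes of endosomes, lysosomes and vesicles 15 fell and 7 rose, 33.3% called. The sorting nexins SNX3 and SNX2 were at -1.23 ± 0.095 and -1.04 ± 0.11, the adaptor subunit AP3B1 at -1.02 ± 0.10 and the proton pump subunit ATP6V1D at -1.07 ± 0.20, which was lost with possible dye swaps averaged (adjusted p = 0.0603). Cathepsin C, CTSC, was at 1.16 ± 0.076, the lysosomal membrane protein LAMP1 at 0.50 ± 0.091 and the pump subunit ATP6V1C1 at 0.77 ± 0.11. Of 19 autophagy genes 5 rose and 4 fell, 47.4% called, with the conjugating enzyme ATG3 at -1.14 ± 0.11 and the protease ATG4A at -0.84 ± 0.15. The autophagy count higher went from 5 to 1 without replicate 4, to 2 without replicate 2 or 3 and to 3 without replicate 1.

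Of 47 cytosolic and mitochondrial chaperones 14 fell, 2 rose and 31 were not called, 34% called against 22.3% of all genes. The count higher was 1 without replicate 2, 3 or 4 and 4 without replicate 5. HSPB8 and CRYAB, small heat shock proteins that hold unfolded proteins, led them, CRYAB at -2.10, -1.07, -1.89, -1.71 and -2.16. The chaperonin subunit CCT2 was at -1.34 ± 0.087 and the prolyl isomerases FKBP3 and FKBP5 at -1.15 ± 0.13 and -1.05 ± 0.13. Of 29 proteasome genes 7 fell, 3 rose (1 without replicate 1 or 4) and 19 were not called, 34.5% called. The ATPase PSMC6 was at -0.84 ± 0.12, and the core subunits PSMA2 (-0.77 ± 0.13) and PSMA4 (0.61 ± 0.099) lay on opposite sides. Of 68 ubiquitin genes 8 fell and 6 rose, 20.6% called, near the 22.3% of all genes, and the count lower was 4 without replicate 3 and 5 without replicate 5. UCHL1, a neuronal ubiquitin hydrolase also found in tumours, was at 1.89 ± 0.19.

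Several genes of fatty acid metabolism were lower. Of 37 genes of fatty acid uptake, activation and oxidation 13 fell and 2 rose, 40.5% called against 22.3% of all genes, and the list's median was -0.23. ACAT1 (-0.91 ± 0.084) and ACAA2 (-0.74 ± 0.22) of the thiolase step, CPT2 of the carnitine shuttle (-0.79 ± 0.13), the thioesterase ACOT7 (-1.25 ± 0.12) and the elongation reductase HSD17B12 (-1.03 ± 0.096) were lower. FABP3 and ACSL5 rose and FABP5 fell. Without replicate 3 or 5 the count lower was 8, and ACAA2 was lost without replicate 1, 3, 4 or 5, with a dye term (adjusted p = 0.0726), with robust eBayes (0.0545) and with possible dye swaps averaged (0.253 and 0.0788). Of 14 peroxisome genes 6 fell and 1 rose, 50% called, and the one that rose was lost without replicate 3 or 4. AMACR, the racemase of branched-chain fatty acids, stood at -1.69, -2.24, -1.69, -1.12 and -0.88, catalase, CAT, at -1.85, -0.92, -1.66, -1.17 and -1.34, and the import receptor PEX7 was at -0.92 ± 0.11. Both lay below 0 on every array, and AMACR was nearest 0 on replicates 4 and 5.

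Synthesis of fatty acids and phospholipids showed no single direction. Of 29 genes of fatty acid synthesis and phospholipids 4 fell and 3 rose, 24.1% called, near the 22.3% of all genes. Malic enzyme ME1 was at -1.41 ± 0.14, the choline phosphotransferase CHPT1 at -1.07 ± 0.13 and the CDP-diacylglycerol synthase CDS1 at 1.51 ± 0.10. Of 9 genes of cholesterol synthesis 3 fell, 1 rose and 5 were not called, 44.4% called, with a list median of -0.51. The count lower was 2 without replicate 1, 3, 4 or 5 and 4 without replicate 2. FDFT1, which makes squalene, rose and was the 1 member above 0. SQLE, which oxidises squalene, stood at -1.13, -0.70, -1.16, -1.43 and -1.45. MSMO1, a later oxidase, was at -0.91 ± 0.23 and was lost without replicate 1, 3, 4 or 5 (adjusted p = 0.0735 to 0.0829), with the spread of all 15 arrays (0.111) and with possible dye swaps averaged (0.201).

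In amino acid and one-carbon metabolism 11 of 38 genes fell and 5 rose, 42.1% called against 22.3% of all genes. Besides ALDH1L2, its cytosolic counterpart ALDH1L1 fell (-1.23 ± 0.14). HIBADH of valine breakdown stood at -2.06, -1.29, -1.92, -1.41 and -1.48, and GATM, the first enzyme of creatine synthesis, was at -0.75 ± 0.12. MAT2B, a subunit of the S-adenosylmethionine synthetase, was at 1.00 ± 0.10. Without replicate 3, 4 or 5 the count higher went from 5 to 2, and without replicate 1 to 3. In the citric acid cycle and respiratory chain 15 of 62 fell and 4 rose, 30.6% called. The dehydrogenases MDH1, IDH1, IDH2 and SDHB were at -0.95 ± 0.12, -0.84 ± 0.16, -0.82 ± 0.071 and -0.76 ± 0.14. IDH1 was lost with possible dye swaps averaged (adjusted p = 0.0824). Against them NDUFV2, the complex I subunit NDUFB3 (1.73 ± 0.14) and cytochrome c1, CYC1 (1.44 ± 0.15), were higher. The count lower was 9 without replicate 3, 10 without replicate 5 and 16 without replicate 4.

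Of 17 hypoxia-responsive genes 6 fell and 3 rose, 52.9% called against 22.3% of all genes. VEGFA and P4HA2 rose, while BNIP3, ANGPTL4 (-0.70 ± 0.13) and the vasoconstrictor peptide gene EDN1 (-1.61 ± 0.39) fell, EDN1 with adjusted p from 0.0516 to 0.0682 without replicate 1, 2, 4 or 5 and 0.0755 with robust eBayes. Of 30 genes of glycolysis and the pentose phosphate pathway 4 fell and 3 rose, 23.3% called, close to all genes. Here the count higher was 0 without replicate 4 and 1 without replicate 3 or 5, and the count lower 2 without replicate 1 or 3.

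Metal-binding and redox genes were called in 42.1% and 38.2% of cases, against 22.3% of all genes. Among 19 genes of metal handling 4 rose and 4 fell, with a list median of -0.10. Besides MT2A and STEAP1, the metallothionein MT1E (1.60 ± 0.083) and the metalloreductase STEAP2 (1.28 ± 0.16) rose. The haem synthesis gene UROD (-0.80 ± 0.14) was among those that fell. Metallothionein paralogues are near-identical, and their probes may share signal. Of 34 glutathione and antioxidant enzymes 11 fell and 2 rose, the count higher being 1 without replicate 1, 3 or 4 and 4 without replicate 5. CAT, the glutathione transferase GSTA4 (-1.23 ± 0.084), the glutaredoxin GLRX3 (-0.83 ± 0.11), the superoxide dismutase SOD1 (-0.81 ± 0.15) and the peroxiredoxin PRDX3 (-0.76 ± 0.078) fell, while the quinone reductase NQO1 rose, at 1.18, 2.21, 1.12, 1.84 and 1.57. The drug efflux pump ABCB1 was at 0.99 ± 0.19 and its paralogue ABCB4, a phospholipid pump, at -0.95 ± 0.17. With possible dye swaps averaged SOD1 (adjusted p = 0.0697) and ABCB4 (-0.828, adjusted p = 0.059) were lost. Among 34 S100 proteins, annexins and calcium-binding proteins 9 rose and 4 fell (1 without replicate 3, 2 without replicate 1), 38.2% called. S100A11 was at 1.39 ± 0.13. Of 90 solute carriers 12 rose and 2 fell, 15.6% called against 22.3%, and none fell without replicate 1, 3, 4 or 5, with the vitamin transporter SLC5A6 at 1.35 ± 0.19 and the bicarbonate transporter family member SLC4A11 at 0.98 ± 0.12.

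Among markers of leukocytes, endothelium, other organs and muscle 0% to 9.09% of each list were called, against 22.3% of all genes. Of 18 leukocyte markers 1 was called, CD14 (0.36 ± 0.10), and it was lost without replicate 2, 3, 4 or 5. None of 7 endothelial markers, 23 of kidney, liver and gut, 2 adipocyte and 2 cartilage markers was called by limma, with ICAM2 at 0.08 ± 0.088, AHSG at 0.26 ± 0.091, PNPLA2 at 0.32 ± 0.28 and COL2A1 at 0.09 ± 0.067. AHSG was called higher without replicate 4 (0.337, adjusted p = 0.0491). Of 33 muscle markers 3 fell, led by the myosin light chain MYL2 (-0.50 ± 0.11), which was lost without replicate 1, leaving 1. Of 19 neural markers 3 rose (1 without replicate 3) and 1 fell, 21.1% called, led by UCHL1 and by the growth cone protein GAP43 (-1.24 ± 0.29), which was lost without replicate 3 or 4 and with possible dye swaps averaged. Of 13 hormone receptors and milk genes 3 fell, 23.1% called, led by the membrane progesterone receptor component PGRMC2 (-0.56 ± 0.12), which was lost without replicate 3 and with possible dye swaps averaged. None was called lower without replicate 3, and 1 was without replicate 2 or 5.

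**Figure D3:**
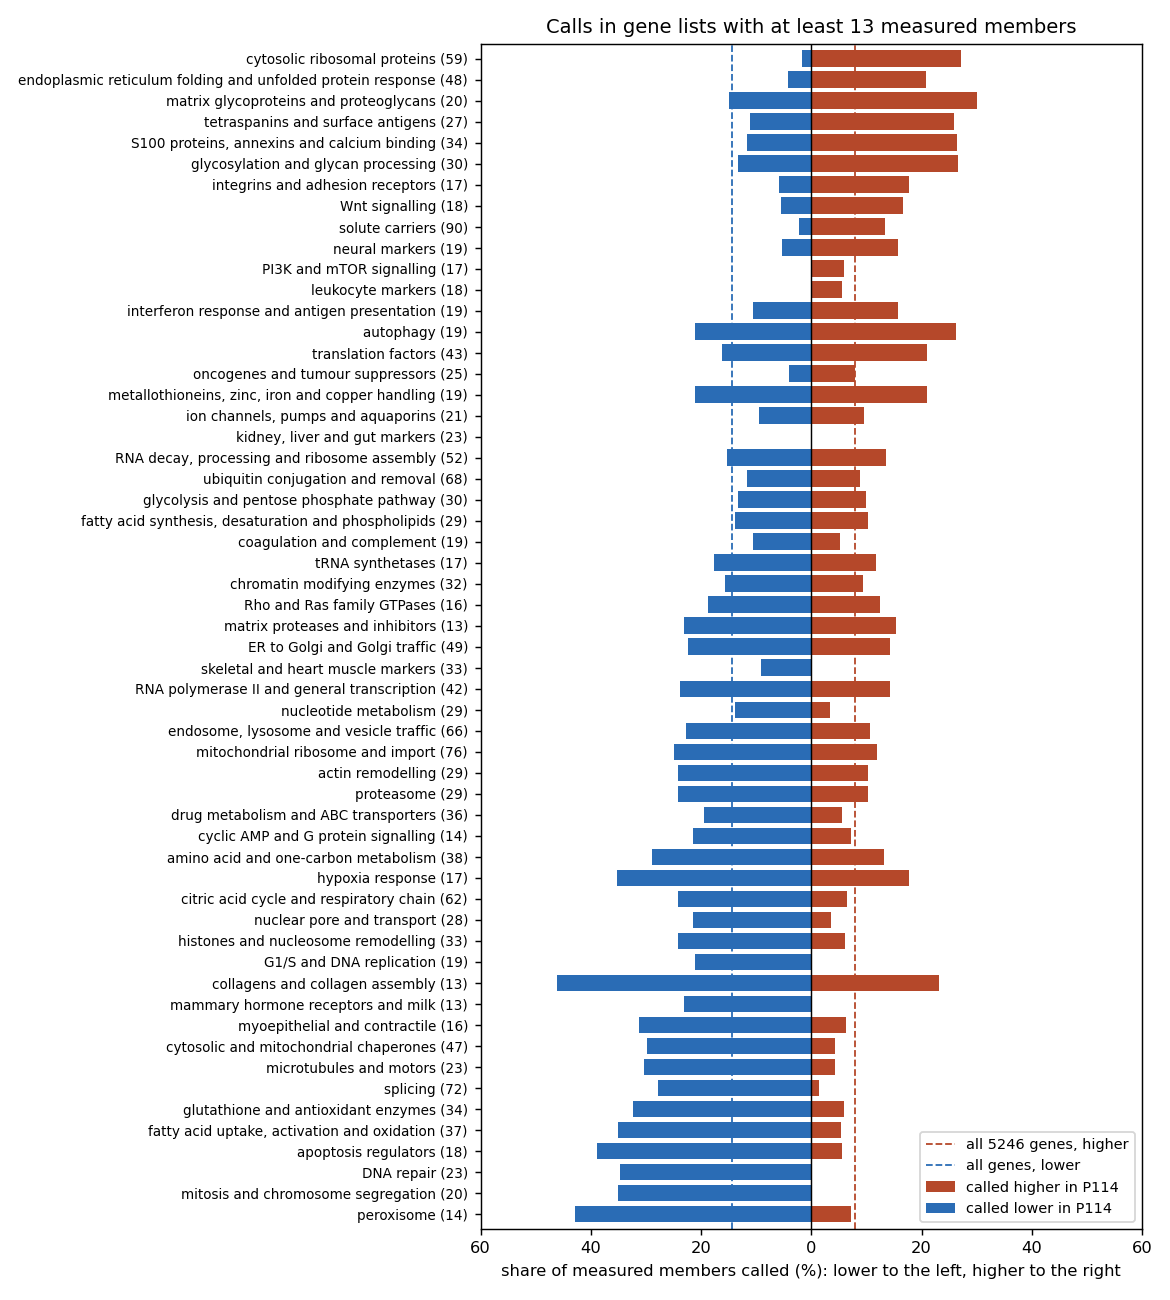
Share of the measured members of each gene list called higher (red, right) or lower (blue, left) in P114 by limma, for lists with at least 13 measured members, whose number stands in brackets; dashed lines mark the shares of all 5246 genes, 7.89% higher and 14.4% lower. Cytosolic ribosomal proteins and endoplasmic reticulum folding lie at the top with more members higher, and peroxisome, mitosis and DNA repair at the bottom with more members lower; lists share some genes.

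Called genes were unevenly spread over the chromosomes. Chromosomes and gene order were taken from the RefSeq table of assembly UU_Cfam_GSD_1.0, which placed 5002 of the genes. On chromosome 13, 46.9% of 96 genes were called higher and 8.33% lower, against 7.89% and 14.4% of all genes. The median ratio of its genes was 0.35, 0.25, 0.32, 0.25 and 0.37 on replicates 1 to 5. On chromosome 33, 3.77% of 53 genes were higher and 37.7% lower, with medians of -0.17, -0.17, -0.26, -0.21 and -0.26. On chromosome 21, 16.2% of 111 genes were higher and 1.8% lower, and 80.2% had a ratio above 0. For chromosomes 13 and 33 the 5 arrays lay on one side of 0 and outside the medians of most other chromosomes.

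**Figure D4:**
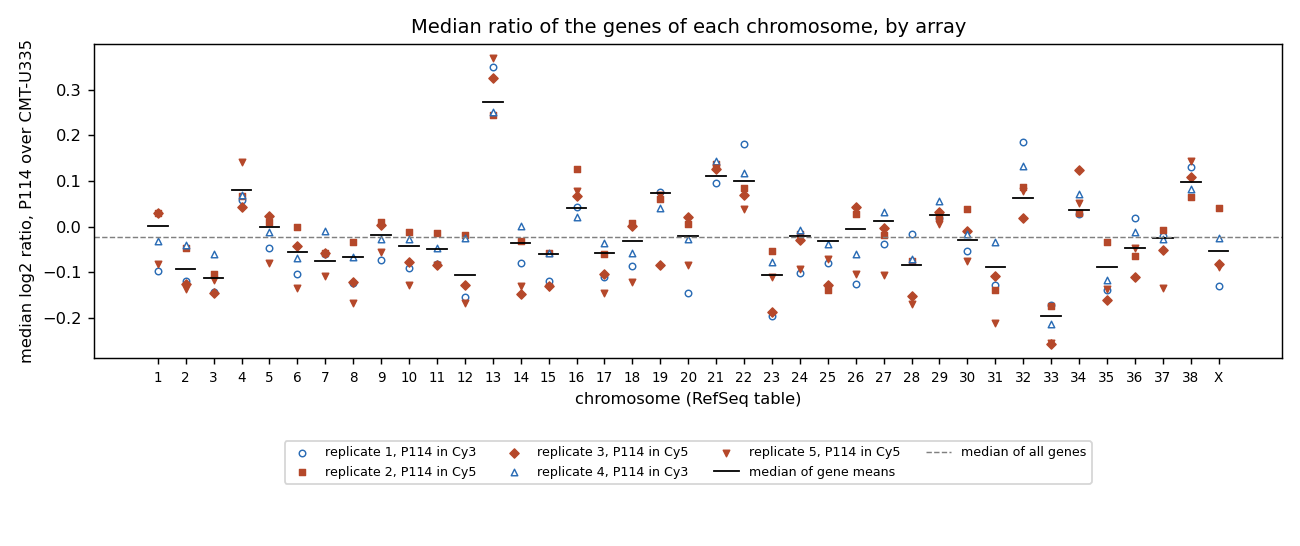
Median log2 ratio of P114 over CMT-U335 over the named genes of each chromosome; symbols are the 5 arrays (filled red with P114 in Cy5, open blue with P114 in Cy3), black bars the medians of gene means, and the dashed line the median of all genes, -0.023. Chromosome 13 lies highest (0.274) and chromosome 33 lowest (-0.195).

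Along the chromosomes, 28 runs of at least 8 called genes of one direction, with no gene called the other way between them, were found, and in 6 of them more genes were called than not. Runs were looked for after the ratios had been seen, and they carry no test. The longest of these 6 lay on chromosome 13, where 17 of the 26 measured genes from RPL30 to TAF2 rose and 24 of 26 lay above 0. They included the initiation factor subunits EIF3E and EIF3H, PABPC1, EXT1, the nuclear transcription cofactor ENY2 (1.57 ± 0.071), the estrogen-responsive antigen EBAG9 (1.36 ± 0.11) and the vacuolar pump subunit ATP6V1C1. The median of all 26 was 0.76, 0.54, 0.50, 0.46 and 0.71 on replicates 1 to 5. It was 0.20 in P114 over CMT-U229 and 0.58 in CMT-U229 over CMT-U335.

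Beyond that run, chromosome 13 held genes of both directions, with SQLE (-1.17 ± 0.12) and the SUMO ligase NSMCE2 (-1.14 ± 0.11) lower and TRIB1 higher close by. From EEF1D to ATP8A1, 11 of 18 measured genes rose and 17 lay above 0, among them RPL8, CYC1, GPAA1, the splicing factor PUF60 (1.08 ± 0.12) and EXOSC4 of the RNA exosome (0.58 ± 0.13, lost without replicate 3 and with possible dye swaps averaged). ATP8A1 itself was at 0.60, 0.60, 0.10, 0.63 and 0.65. The median of these 18 genes was 0.05 in P114 over CMT-U229 and 0.48 in CMT-U229 over CMT-U335. From SPINK2 to ANKRD17, 8 of 12 rose, among them IGFBP7, the nucleolar UTP3 (1.02 ± 0.11) and the mitochondrial RNA-binding GRSF1 (1.12 ± 0.085). The median of those 12 genes was 0.06 and 0.38 in the same order. So RPL8, RPL30, EIF3E, EIF3H, EEF1D and PABPC1 of the translation lists, and CYC1 of the respiratory list, lie on this chromosome, within runs that hold genes of other functions.

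Chromosome 4 held genes of both directions. From DNAJC21 to RETREG1 near its end, 11 of 15 measured genes fell and 13 lay below 0, with AMACR, the RNA-binding ZFR (-1.30 ± 0.096) and the tRNA synthetase TARS1 (-1.11 ± 0.085). Their median was -0.54, -0.56, -0.79, -0.46 and -0.56 on replicates 1 to 5. It was -0.02 in P114 over CMT-U229 and -0.50 in CMT-U229 over CMT-U335. In the middle of the chromosome 20 genes from GHITM to MRPS30 rose with none lower between them, although 47 of the 67 measured there were not called. They included DUSP1, NPM1, CCNG1, MAT2B and MOCS2.

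On chromosome 33, 11 of 21 genes from IFT57 to HSPBAP1 fell and 17 lay below 0, with ATG3, CCDC80, the phosphatase inhibitor CIP2A (-1.18 ± 0.095) and the intraflagellar transport gene IFT57 (-1.11 ± 0.11). PROS1 and NXPE3 lie on the same chromosome outside that run. On chromosome 6, 9 of 12 genes from CCN1 to TYW3 fell and 10 lay below 0, with the tubulin-modifying TTLL7 (-1.36 ± 0.20) and the latrophilin ADGRL2 (-0.61 ± 0.11). The medians of the runs on chromosomes 33 and 6 were below 0 on each of the 5 arrays. In P114 over CMT-U229 they were -0.06 and -0.07, and in CMT-U229 over CMT-U335 -0.26 and -0.18.

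**Figure D5:**
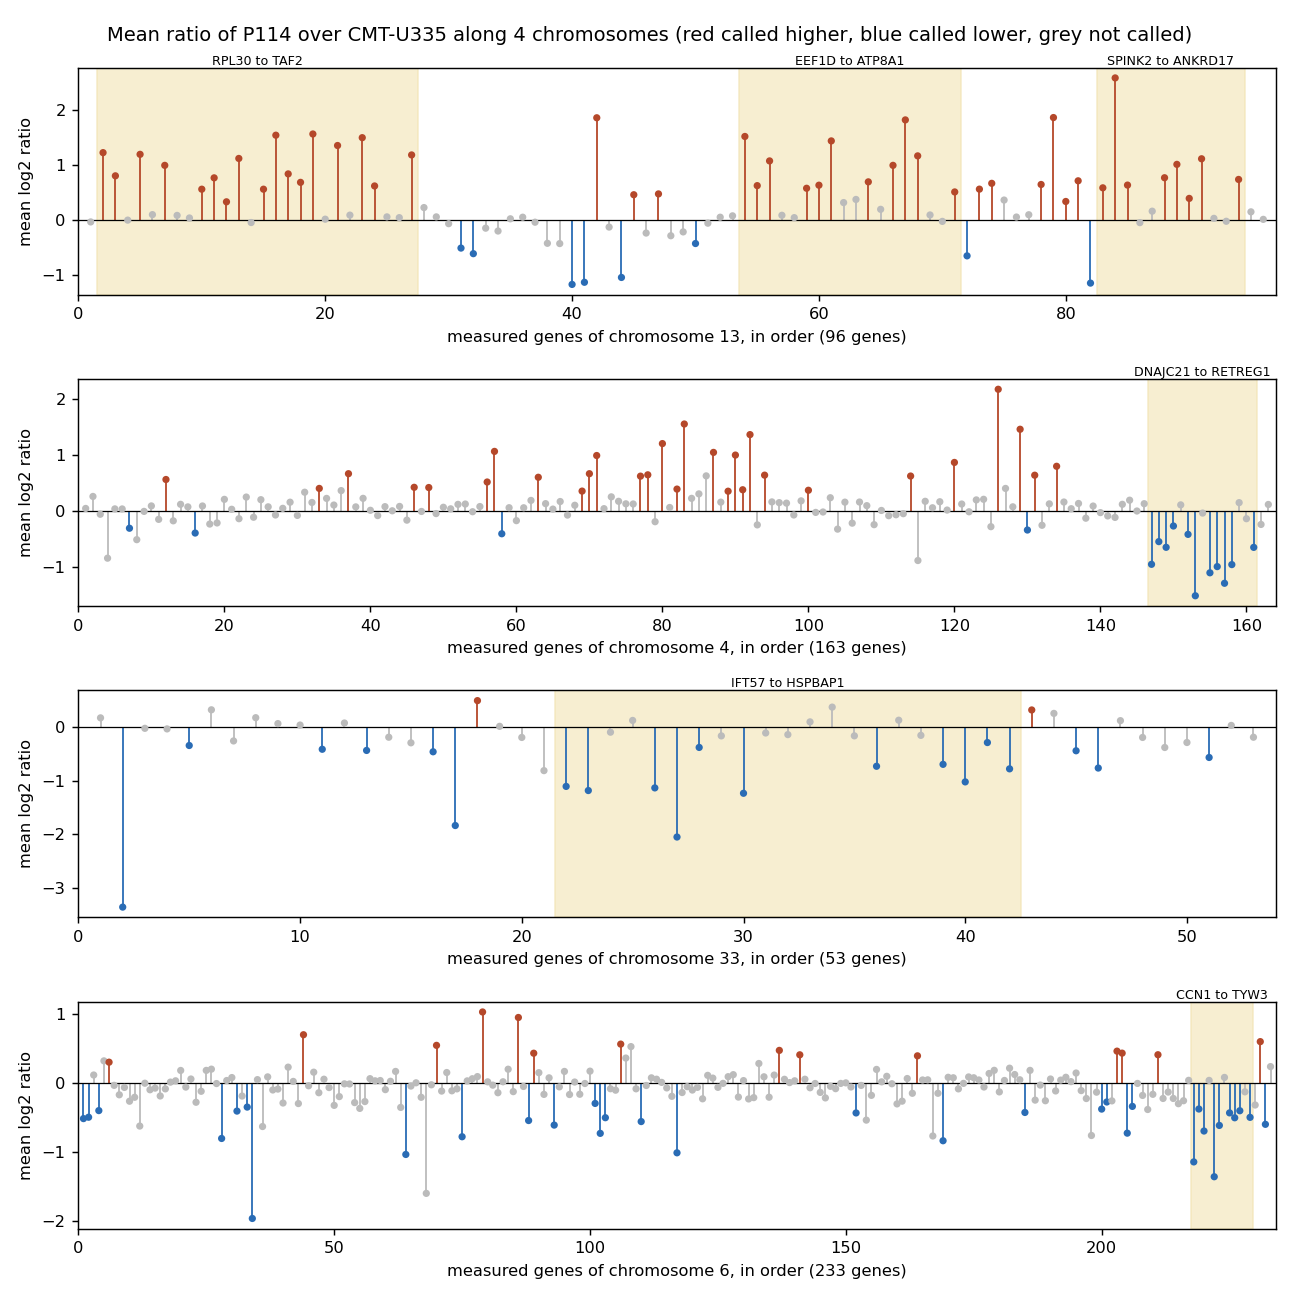
Mean log2 ratio of P114 over CMT-U335 of the measured genes of chromosomes 13, 4, 33 and 6 in the order of the RefSeq table (horizontal axis: rank, not distance), with genes called higher in red, called lower in blue and not called in grey; shaded bands are the 6 runs of at least 8 called genes in which more genes were called than not. On chromosome 13 the 3 shaded runs are higher with lower genes between them, and the shaded runs of chromosomes 4, 33 and 6 are lower.

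Tested singly, 2289 of all 22176 probes were called (10.3%), 1293 of the 7694 named ones (16.8%) and 996 of the 14482 unnamed ones (6.88%). Of the called unnamed probes 117 were at least 2-fold higher and 102 at least 2-fold lower. Different probes of a gene gave a check on single genes. Of the 42 called genes that differed at least 2-fold and had more than 1 probe, 40 had every probe on the same side of 0, and in 30 every probe was called in the same direction when probes were tested singly. The exceptions were CHMP4A, whose probes ranged from -0.064 to 2.371, and RARRES2, from -0.018 to 2.242. Probes on one side of 0 could still differ widely. The 3 probes of C1S ran from 0.069 to 3.206, and with their median C1S was at 0.231, not called (limma, adjusted p = 0.127). The 2 probes of CHPT1 were at -1.885 and -0.253. In COL4A1, less than 2-fold lower, the 5 probes ran from -1.342 to 0.163, 4 of them called lower. The 4 probes of CRYAB ranged from -2.494 to -0.808, and the 5 of TPT1 from 1.448 to 1.665.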

How the data were processed

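The authors deposited normalized log ratios of the dyes, read here as log2, for 22176 probes; per the labels' protocols the RNA was column-purified, DNase-treated and amplified by T7 transcription. The normalization, log base and numerator were not stated in the sources used here. Intensities were not used, so depth is unknown, and precision is limited by the number of arrays. Each array was turned to P114 over CMT-U335 by its dyes. The platform annotation gave 7694 probes 1 symbol each and left 14482 unnamed, and 7340 of the symbols were taken from RefSeq (UU_Cfam_GSD_1.0). Probes of a gene were averaged, giving 5246 genes, 1619 of them with more than 1 probe. Limma 3.58.1 in R 4.3.3 (lmFit, eBayes, two-sided) tested whether the mean of 5 arrays differed from 0, p-values were adjusted over all genes (Benjamini-Hochberg), and a gene needed values on 3 arrays. The study's design used SAM, for which limma was substituted. The fit was tested on simulated data.

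Genes described are the 20 largest called means in each direction with the same sign on all 5 arrays, up to 5 called members of each of 73 lists by size, 2 members where none was called, and EGFR, ERBB2 and VIM. Other genes, including further list members and genes of chromosome runs, were chosen after their values were seen. The lists and their members were chosen with earlier results of these data known, so list counts are descriptions, read against the share of all genes. Alternatives were other scalings, filters, fits, thresholds and probe summaries, possible dye swaps averaged, and each array left out.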

Additional observations from a re-analysis of the deposited data

Results flagged for a closer look

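Among the genes taken for description, 12 had 1 array whose ratio stood apart from the other 4 by Dixon's test for 5 values. Chance alone flags about 1 gene in 20, and 301 genes were looked at. Replicate 2 stood apart in 5 of the 12. The steroid oxidase MSMO1 was at 0.233 on replicate 2 and between -1.376 and -0.956 on the others. The class I light chain B2M was at 1.495 on replicate 2, against at most 0.541 elsewhere, and TUSC3 at 1.621, against at most 0.750. DUSP1 was at 0.679 on replicate 2, against at least 1.631, and CCN1 at -2.238, against -1.057 to -0.788.

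On replicate 3, ST3GAL5 was at -3.178, with the others between -1.615 and -1.448, and the phospholipid flippase ATP8A1 was at 0.097, with the others from 0.595 to 0.647. CIDEA, an adipocyte marker that was not called, was at 0.490 there and at most at 0.099 elsewhere. On replicate 4, CCNG1 was at 1.970, against at most 1.320, and XBP1 at 1.417, against at most 0.809. On replicate 5, XPA was at -1.487, with the others from -1.010 to -0.863, and ETS1 at 0.347, with the others from 0.730 to 0.868. Of the 12 genes, MSMO1 was the one in which the array that stood apart had the opposite sign to the called mean.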

How the results depend on the processing

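The 1169 calls came to 642 at an adjusted p under 0.01 and to 1757 in a loop fit over all 15 arrays, which uses the indirect ratios as well, with 663 genes higher. Testing each probe by itself gave 2289 called probes. Every other alternative kept the counts within 1.5 times: array medians at 0, scaling between arrays, complete genes, a dye term, the other arrays' spread, robust eBayes, the median of probes, and possible dye swaps averaged, which gave 839 or 874. With 1 array left out, 835 to 1031 genes were called, 307 to 394 higher and 525 to 682 lower. The difference between direct and indirect ratio, for which the test was conservative, had 0 calls with each of the 5 arrays left out and with a dye term. The numbers of the arrays did not pair them across pairs of lines (correlations of same-numbered arrays from -0.249 to 0.331, 3 of 15 over 0.1, and 1 of 5 arrays correlated best with its own number), and the replicate block gave 1172 calls. Of 290 called genes taken for description none changed sign, and 56 lost the call without some array. The call was kept by 208 in every alternative other than the stricter threshold and the test of single probes, which were not counted here. Some of the 208, such as MSH6 (limma, adjusted p = 0.0106) and ATG12 (limma, adjusted p = 0.0119), were not called at 0.01. Intensities were not used here, so which ratios rest on dim spots is unknown.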

Other observations

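Several genes outside the lists also differed at least 2-fold, and they were chosen here after their values were seen. Higher in P114 were TMEM165, a Golgi ion transporter (1.87 ± 0.10), the membrane protein ITM2B (1.62 ± 0.096), the crosslinking transglutaminase TGM2 (1.46 ± 0.15), the uridine phosphorylase UPP1 (1.30 ± 0.12) and STC1, a secreted glycoprotein hormone (1.17 ± 0.096). Lower were the chromatin reader YEATS4 (-1.69 ± 0.15), the tRNA methyltransferase TRMT5 (-1.63 ± 0.11), the splicing kinase CLK1 (-1.52 ± 0.33, lost without replicate 4), the LIM domain gene FHL1 (-1.05 ± 0.19) and the intraflagellar transport gene IFT43 (-1.25 ± 0.13).

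Large means did not always come with a call. For 18 genes the mean ratio was at least 1 in size without a call. CAMLG was at 7.24 on replicate 1 and between -0.43 and 0.39 on the others. BCKDK was at -8.44 on replicate 4 and between -0.31 and 0.51 elsewhere. SNRPD3 was at 7.10 on replicate 3 and at 0.11 on replicate 4. In all, 11 genes had a ratio of at least 5 in size, each on exactly 1 array, and these were spread over the 5 arrays with 1 to 4 genes each.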
